A study of Homo sapiens with 8 samples.

Results

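YAP1, WWTR1 (which encodes TAZ) and 8 genes that bind, answer to or restrain them were followed by RNA-seq in uveal melanoma cells in which the level of A3B (APOBEC3B, a cytidine deaminase of DNA) had been lowered or raised. The 10 genes were chosen by symbol. They included the co-activators YAP1 and WWTR1, the DNA-binding partner TEAD1 and the transcriptional targets CCN1, CCN2 and ANKRD1. The others were the restraint and feedback genes AMOTL1, AMOTL2 and LATS2, and AJUBA, which dampens LATS kinases. All 10 were found among the 19952 symbols, each with a level in FPKM (fragments scaled to transcript length and to the mapped total of the library) in every library. The study asked how A3B bears on R-loops and replication stress in melanoma. YAP and TAZ were not its question.

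The libraries fell into 4 groups of 2, all from cells grown in RPMI1640 with serum and labelled as uveal melanoma cells. In the line 92.1, the group shCtrl held control cells and the group shA3B cells with A3B knockdown. In the line MEL290, the group NC held control cells and the group A3B OE cells overexpressing A3B. The methods describe the 92.1 control as an empty vector, and whether the modified cells were a pool or a single clone is not given in the sources used here. Each direction of A3B change was thus made in 1 line only, and nothing states that the 2 libraries of a group came from separate cultures, so p-values measure the spread between these libraries, which may be technical.

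YAP and TAZ are paralogous co-activators that bind no DNA themselves. When the Hippo kinases (MST1 and MST2, encoded by STK4 and STK3, then LATS1 and LATS2) are active, YAP and TAZ are phosphorylated and held in the cytoplasm, and when the kinases are inactive they enter the nucleus, pair with TEAD factors and switch on genes of growth, matrix and cytoskeleton. Most uveal melanomas carry an activating mutation in GNAQ or GNA11, whose Gq proteins are known to feed YAP through TRIO, small GTPases and actin. RNA levels do not show where YAP and TAZ proteins were located.

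A3B itself, read first as a check of the labels, stood at 35.9 and 32.3 FPKM in shCtrl, and its depletion in shA3B left 1.98 and 2.37 FPKM. In MEL290 it stood at 2.67 and 2.19 FPKM in NC and at 28.4 and 27.5 FPKM in A3B OE. All 8 libraries thus fitted their labels, and the MEL290 controls held about as little A3B RNA as the depleted 92.1 cells. The files give no read counts. The spacing of low values pointed to roughly 17600000 to 32200000 fragments per library, a coarse estimate, since 18.1 to 29.1% of the genes used fell close to the value taken.

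The 2 lines did not match in melanocyte marker levels, and this stood beside every contrast between them. All 8 melanocyte markers exceeded 1 FPKM in each 92.1 library, with a summed level of 7215 to 8821 FPKM. In MEL290 the sum was 32.5 to 39.4 FPKM, TYR was listed at 0 in all 4 libraries, SOX10 lay at 0 to 0.168 FPKM and MLANA at 0 to 0.138 FPKM, and most of the sum came from MITF and GPR143. Of the 8 defining melanocyte markers, MEL290 thus held MITF and GPR143 clearly and the others at 1.31 FPKM or less. Per the methods, short tandem repeat profiling had authenticated the lines. The keratins KRT8 and KRT18 moved the opposite way: KRT8 stood at 0.0658 to 0.347 FPKM in 92.1 and at 907 to 1295 FPKM in MEL290. The epithelial markers EPCAM and CDH1 were low in both lines. EPCAM lay at 0.0231 to 0.0728 FPKM in 92.1 and at 0 to 0.0704 FPKM in MEL290. CDH1 lay at 0.0618 to 0.277 FPKM in 92.1 and at 0.180 to 2.14 FPKM in MEL290. The column names of the files also differ between the lines, so the lines may have been processed in separate runs. Line, control construct and any separate processing cannot be told apart.

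TEAD factors recognise a short DNA motif, GGAATG on 1 strand and CATTCC on the other. The 250 bases before the annotated start of each matched member were searched for it on both strands in RefSeq promoter sequences (GRCh38.p14). There, 8 of the 10 symbols were matched, with 11 starts. CCN1 and TEAD1 were not among those sequences, so their promoters were not searched. A match stood before 5 of those 11 starts. Across all 35116 promoters of the same length, 11.9% held at least 1 match, 0.94% at least 2 and 0.0826% at least 3. The sequences of CCN2 and ANKRD1 are shown because they held the most matches and because both genes fell with A3B in MEL290. CCN2 lies on the minus strand at chr6:131948176-131951372, and the stretch shown is chr6:131951373-131951622. ANKRD1 lies on the minus strand at chr10:90912096-90921087, and the stretch shown is chr10:90921088-90921337. Both are written 5′ to 3′ towards the start, with the motif in capitals.
CCN2: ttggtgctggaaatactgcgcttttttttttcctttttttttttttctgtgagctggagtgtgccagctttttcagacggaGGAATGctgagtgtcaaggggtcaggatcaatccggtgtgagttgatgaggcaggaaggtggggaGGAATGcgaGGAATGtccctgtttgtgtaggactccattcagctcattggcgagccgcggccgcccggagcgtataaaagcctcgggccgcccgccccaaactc
ANKRD1: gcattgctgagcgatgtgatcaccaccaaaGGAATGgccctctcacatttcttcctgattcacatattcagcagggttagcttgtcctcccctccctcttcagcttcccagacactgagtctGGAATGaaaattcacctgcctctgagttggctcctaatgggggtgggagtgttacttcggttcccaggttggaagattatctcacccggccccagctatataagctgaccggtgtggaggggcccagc
In CCN2 the first base of the 3 matches lay at -169, -104 and -95 relative to the start, the latter pair only a few bases apart. The 2 matches of ANKRD1 lay at -220 and -128. Single matches were found before YAP1 at -162, before 1 of the starts of AMOTL2 at -69 and before 1 of the starts of AJUBA at -59. No match was found before WWTR1, AMOTL1 or LATS2. A match is a run of letters and says nothing of binding in these cells.

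The co-activators differed between the lines in their make-up more than in their sum. YAP1 (chr11:102110447-102233424, plus strand) stood at 49.7 and 45.3 FPKM in 92.1 shCtrl, 47.5 and 42.7 FPKM in shA3B, 27.2 and 30.9 FPKM in MEL290 NC and 34.8 and 33.8 FPKM in A3B OE. Its 4 libraries of 92.1 all lay above its 4 libraries of MEL290. WWTR1 (chr3:149517235-149736714, minus strand) was barely seen in 92.1, at 0.228 and 0.454 FPKM in shCtrl and 0.150 and 0.129 FPKM in shA3B, and stood at 24.4 and 23.4 FPKM in NC and 26.1 and 27.4 FPKM in A3B OE. TAZ thus made up 0.300 to 0.990% of the summed YAP1 and WWTR1 FPKM in the 92.1 libraries and 42.9 to 47.3% in the MEL290 libraries, while the sum itself was 42.9 to 49.9 FPKM in 92.1 and 51.6 to 61.3 FPKM in MEL290.

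**Figure D1:**
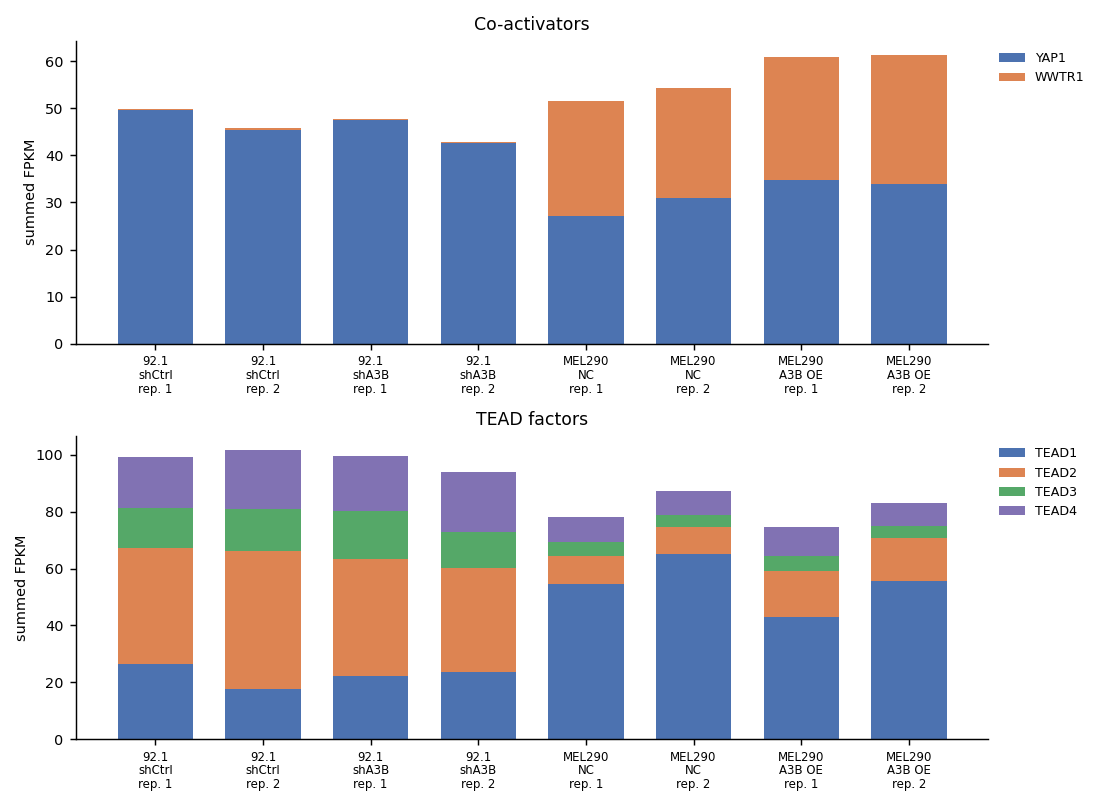
Stacked bars of FPKM in each of the 8 libraries, for YAP1 and WWTR1 (top) and for TEAD1, TEAD2, TEAD3 and TEAD4 (bottom). WWTR1 is almost invisible in the 92.1 bars and takes up 42.9 to 47.3% of the MEL290 bars, and TEAD1 is 17.2 to 26.4% of the TEAD sum in 92.1 against 57.3 to 74.6% in MEL290.

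TEAD1 (chr11:12674421-12944737, plus strand), the partner that carries YAP and TAZ to DNA, was higher in MEL290. Its levels were 26.3 and 17.5 FPKM in shCtrl, 22.3 and 23.7 FPKM in shA3B, 54.4 and 65.2 FPKM in NC and 42.8 and 55.6 FPKM in A3B OE. The pair of shCtrl libraries enclosed both shA3B libraries, and NC and A3B OE overlapped as well. The other TEAD genes went the other way across the lines: TEAD2 stood at 36.5 to 48.6 FPKM in 92.1 and 9.43 to 16.5 FPKM in MEL290, TEAD3 at 12.6 to 16.7 against 4.38 to 5.25 FPKM, and TEAD4 at 18.1 to 21.5 against 7.99 to 10.2 FPKM. TEAD2 was therefore the most abundant TEAD transcript in 92.1 and TEAD1 in MEL290.

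On the FPKM scale the 3 targets were the members with the widest range, although the ratio of highest to lowest level was wider for WWTR1 than for either CCN gene. CCN1 (chr1:85580761-85584589, plus strand) encodes CYR61, a matrix protein secreted on YAP activation. It was at 9.54 and 8.42 FPKM in shCtrl, 8.98 and 8.10 FPKM in shA3B, 250.2 and 243.4 FPKM in NC and 302.1 and 278.2 FPKM in A3B OE. CCN2, which encodes the related matrix protein CTGF, was at 1.98 and 1.68 FPKM in shCtrl, 2.09 and 1.34 FPKM in shA3B, 147.9 and 164.4 FPKM in NC and 93.1 and 95.7 FPKM in A3B OE. ANKRD1, a nuclear and sarcomeric ankyrin repeat protein, was listed at 0 in all 4 libraries of 92.1, and reached 69.6 and 61.2 FPKM in NC and 50.5 and 50.9 FPKM in A3B OE. All 3 genes were far higher in MEL290, and within MEL290 the A3B OE libraries lay above NC for CCN1 and below NC for CCN2 and ANKRD1. A value of exactly 0 in these files may also be a failed estimate, so no fold is given for ANKRD1 across the lines.

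The restraint and feedback genes AMOTL1, AMOTL2 and LATS2, and AJUBA, spanned a narrower range. AMOTL1 (chr11:94706431-94876748, plus strand), an angiomotin-like protein that holds YAP at junctions and actin, was at 11.4 and 8.95 FPKM in shCtrl, 11.4 and 8.99 FPKM in shA3B, 20.2 and 21.8 FPKM in NC and 13.6 and 12.7 FPKM in A3B OE. Its paralog AMOTL2 (chr3:134355347-134375479, minus strand), both an inhibitor and a target of YAP, was at 43.0 and 42.0, then 46.7 and 40.3, then 55.1 and 55.6, then 40.7 and 39.0 FPKM in the same order of groups. For both angiomotin genes the NC libraries were the highest of all 8, and for AMOTL2 the A3B OE libraries fell to about the 92.1 level or just under it. LATS2 (chr13:20973036-21061586, minus strand), the kinase that phosphorylates YAP and is itself induced by it, was at 10.8 and 10.9 FPKM in shCtrl, 10.2 and 9.64 FPKM in shA3B, 6.29 and 6.39 FPKM in NC and 6.33 and 6.06 FPKM in A3B OE. AJUBA (chr14:22971177-22982551, minus strand), a LIM protein that binds LATS kinases and dampens them, was at 16.8 and 15.8 FPKM in shCtrl, 16.0 and 14.7 FPKM in shA3B, 21.8 and 19.3 FPKM in NC and 27.7 and 28.8 FPKM in A3B OE. Among AMOTL1, AMOTL2, LATS2 and AJUBA, only LATS2 had all MEL290 libraries below all 92.1 libraries. Only for AJUBA were the A3B OE libraries the highest.

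**Figure D2:**
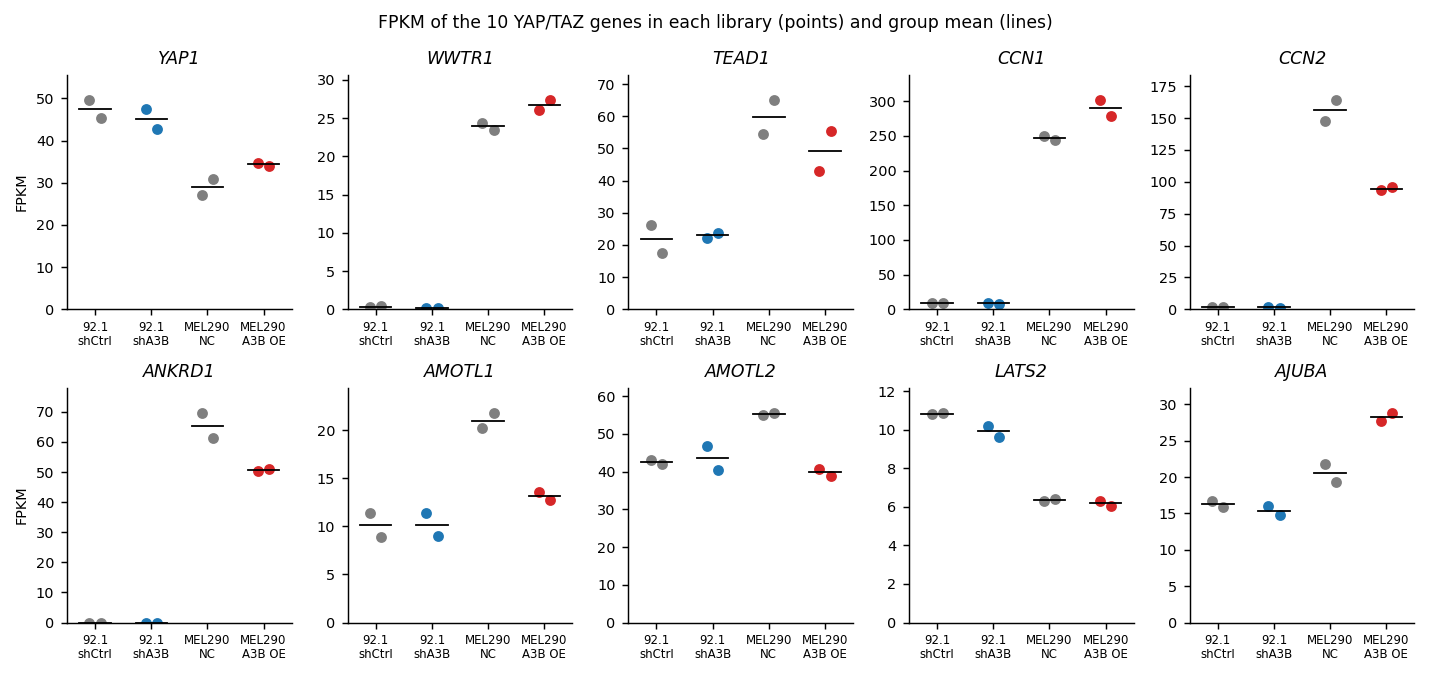
FPKM of each of the 10 genes (vertical axes, each starting at 0) in the 4 groups. Points are the 2 libraries of a group and lines are group means; CCN1, CCN2, ANKRD1 and WWTR1 stand near the axis in 92.1 and high in MEL290, and CCN2, ANKRD1, AMOTL1 and AMOTL2 are lower with A3B OE than with NC.

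A3B depletion in 92.1 left no detectable mark on the YAP/TAZ genes. Of the 10 genes, 8 passed the filter on low values (at least 1 FPKM in at least 2 libraries) and were tested with limma on log2(FPKM + 1), and none was called at an adjusted p under 0.05 or had an unadjusted p under 0.05. WWTR1 and ANKRD1 were too low to be tested. The estimates of the 8 ran from -0.12 for LATS2 to 0.09 for TEAD1 on that log2 scale, and every 95% interval included 0. The widest interval was that of CCN2 (log2 change -0.07, 95% interval -0.53 to 0.39), and the narrowest was that of YAP1 (-0.07, -0.37 to 0.23), so changes within those bounds could not be seen with 2 libraries a group. The libraries of the 2 groups did not overlap for LATS2 alone among the tested genes, with shA3B lower, where 28.6% of all 11605 tested genes did not overlap. Across all genes only A3B itself was called (1 gene, 0.00862%), while 336 had an unadjusted p under 0.05.

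A3B overexpression in MEL290 went with lower CCN2, ANKRD1, AMOTL1 and AMOTL2 and with higher AJUBA. These 5 of 10 members were called, against 17.8% of all 11611 genes tested. By direction, 1 member rose where 10.3% of all genes did, and 4 fell where 7.49% did. The median log2 change of the 10 members was -0.16, and that of all genes tested was 0.00. For 8 of the 10 members the libraries of the 2 groups did not overlap (4 higher and 4 lower with A3B OE), but 61.3% of all genes were separated in the same way.

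CCN2 had the largest change of the 10. Its mean level with A3B OE was 0.605 times that of NC (log2 change -0.72, SE 0.0775, limma adjusted p = 0.00406), with both A3B OE libraries below both NC libraries. The call was kept under all 12 alternatives tried, with log2 changes between -0.79 and -0.64. The 3 TEAD-motif matches shown above stand before this gene, and a link between them and its change was not tested. The promoter of CCN1 was not searched. CCN1, the target nearest to it in family, showed a mean 1.18 times that of NC and a log2 change of 0.23 (95% interval 0.06 to 0.40, limma adjusted p = 0.0692), and so was not called. Under upper quartile scaling its adjusted p was 0.0326, within a range of 0.0326 to 0.291 over the alternatives. The intervals of the 2 CCN genes lay on opposite sides of 0.

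ANKRD1 fell by 0.36 on the log2 scale to a mean 0.774 times that of NC (SE 0.0879, limma adjusted p = 0.0397). This call was weak. With all libraries kept, it was lost without the trend, without the filter and with the replicate block (limma adjusted p = 0.0862, 0.0957 and 0.0591). The fit of all 8 libraries and quantile normalization lost it as well (limma adjusted p = 0.0752 and 0.05002). It was also lost without MEL290 NC replicate 1, A3B OE replicate 1 or A3B OE replicate 2 (log2 changes -0.27, -0.35 and -0.37).

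Both angiomotin-like genes fell. AMOTL1 reached a mean 0.625 times that of NC (log2 change -0.64, SE 0.1, limma adjusted p = 0.0111), and AMOTL2 a mean 0.72 times that of NC (log2 change -0.46, SE 0.0752, limma adjusted p = 0.012). In both cases all A3B OE libraries lay under all NC libraries. Both calls were lost only without A3B OE replicate 2 (limma adjusted p = 0.0582 for AMOTL1, range 0.00424 to 0.0582, and 0.0522 for AMOTL2, range 0.0107 to 0.0522). Without that library CCN2 was the only member still called. AMOT, the founding angiomotin, was low in MEL290 and was not called (0.831 and 1.58 FPKM with A3B OE, 0.661 and 1.44 FPKM with NC).

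AJUBA rose to a mean 1.38 times that of NC (log2 change 0.44, SE 0.0983, limma adjusted p = 0.0298). With all libraries kept, the call was lost without the trend, without the filter and with the replicate block (limma adjusted p = 0.0515, 0.0762 and 0.053). It was also lost without NC replicate 2, A3B OE replicate 1 or A3B OE replicate 2 (log2 changes 0.36, 0.47 and 0.42). LATS2, whose product AJUBA binds, gave a log2 change of -0.03 (95% interval -0.32 to 0.26, limma adjusted p = 0.889), and its libraries overlapped.

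Neither co-activator was called, although all A3B OE libraries lay above all NC libraries for both. YAP1 gave a log2 change of 0.24 (95% interval 0.01 to 0.47, limma adjusted p = 0.143) and WWTR1 one of 0.15 (-0.06 to 0.37, limma adjusted p = 0.273). TEAD1 gave -0.28 (-0.64 to 0.07, limma adjusted p = 0.237), with overlapping libraries. A3B OE thus coincided with lower RNA of some targets while the estimates of both co-activators were above 0 and were not called.

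**Figure D3:**
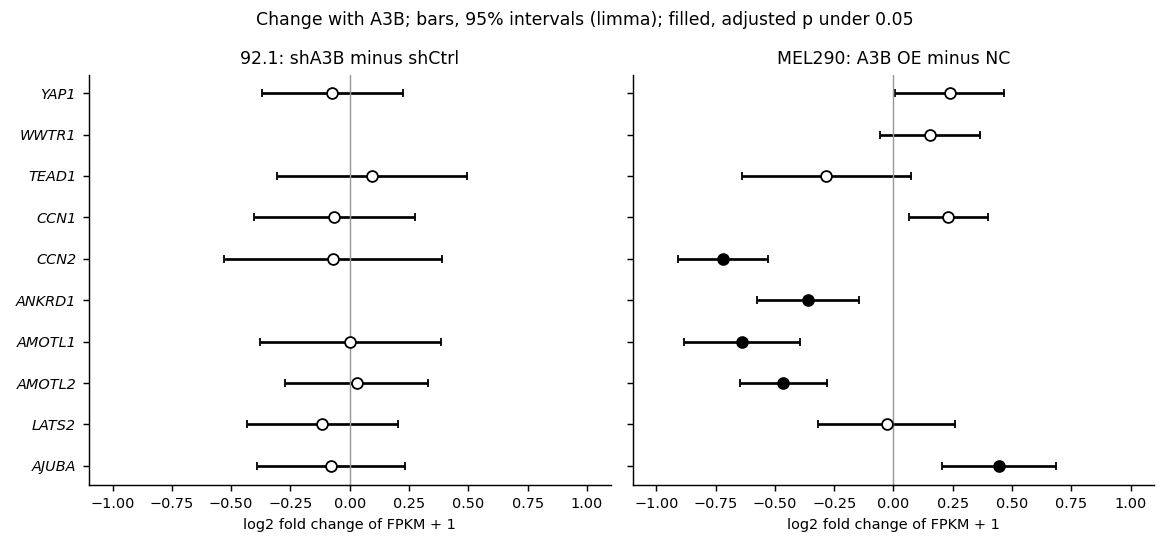
Log2 fold change of FPKM + 1 for each member with A3B depletion in 92.1 (left) and A3B overexpression in MEL290 (right). Points are limma estimates, bars are 95% intervals and filled points had an adjusted p under 0.05; on the left all 8 intervals cross 0, and on the right CCN2, ANKRD1, AMOTL1 and AMOTL2 are filled below 0 and AJUBA above 0. WWTR1 and ANKRD1 were not tested in 92.1.

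The change with A3B OE in MEL290 minus the change with shA3B in 92.1 was tested over all 8 libraries. None of the 10 members was called, where 4.4% of 12697 genes were (559). Of all 12697 genes, 2531 had an unadjusted p under 0.05. An unadjusted p under 0.05 was reached by 4 members: CCN2 (difference -0.65, limma adjusted p = 0.128), AMOTL1 (-0.64, limma adjusted p = 0.139), AMOTL2 (-0.49, limma adjusted p = 0.0907) and AJUBA (0.52, limma adjusted p = 0.0983). The 2 changes are of opposite direction in A3B and were made in different cells. A gene that followed A3B alike in both lines would thus also give a difference, as A3B itself did (6.55). The contrast therefore cannot tell whether the response to A3B differed between the lines. With ANKRD1 listed at 0 in every 92.1 library, its difference (-0.36) is the MEL290 change alone. For WWTR1 the difference (0.38) takes in values of under 0.5 FPKM in 92.1.

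Between the control groups every member was called, though not under every alternative. With MEL290 NC set against 92.1 shCtrl, 10 of 10 were called. The contrast called 74.9% of all 12697 genes, so a call here says little of the members in particular. WWTR1 and ANKRD1 lay under 1 FPKM in every 92.1 library and passed the filter only through MEL290, so their direction was fixed by the filter. With at least 1 FPKM required in every library, 8 members were called, and 7209 of all 10021 genes tested. In MEL290, 8 were higher, where 34.8% of all genes were, and 2 were lower, where 40.1% were. The median log2 difference was 1.21 for the members and -0.07 for all genes. In bulk RNA, fewer cells expressing a gene and less RNA per cell cannot be told apart.

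The size of the differences set the members apart from each other. CCN2 was 85.3 times as high in MEL290 NC as in 92.1 shCtrl (log2 difference 5.79, SE 0.145), WWTR1 70.2 times (4.22, SE 0.126) and CCN1 27.5 times (4.64, SE 0.0995). The log2 values are of FPKM + 1 and understate the fold of genes near 0 in 92.1. TEAD1 was 2.73 times as high (log2 difference 1.43, SE 0.197) and AMOTL1 2.07 times (0.99, SE 0.149). AMOTL2 and AJUBA differed little, at 1.30 times (0.37, limma adjusted p = 0.00756) and 1.26 times (0.31, limma adjusted p = 0.0245). The AJUBA call was lost when the 4 control libraries were fitted alone (limma adjusted p = 0.0512). It was also lost without 92.1 shCtrl replicate 2 or MEL290 NC replicate 1 (log2 differences 0.27 and 0.23). YAP1 and LATS2 were lower in MEL290 NC, at 0.611 and 0.585 times the 92.1 level (log2 difference -0.69 for each, limma adjusted p = 0.000375 and 0.000385). YAP1 thus stood lower, and its paralog and its 3 targets higher, in MEL290.

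Other YAP/TAZ targets were read from a list of 21 further genes. In the control contrast 17 were higher in MEL290 (34.8% of all genes were) and 2 lower (40.1% were), with a median log2 difference of 3.96. Only 14 of the 21 passed the filter on low values within 92.1. The rest, THBS1 and AXL among them, entered this contrast through MEL290, so their direction was largely fixed by the filter. THBS1, a matrix thrombospondin, stood at 0.00476 and 0.0545 FPKM in shCtrl against 330.1 and 352.5 FPKM in NC, and the receptor kinase AXL at 0.0156 and 0.0273 against 191.4 and 197.9 FPKM. FOXF2, a forkhead factor, and ASAP1, an activator of ARF GTPase hydrolysis, were higher in 92.1 (log2 difference -2.11 and -0.23), and ARHGEF17 and FJX1 were not called. The small ASAP1 difference did not keep its call in every fit that left out 1 library. Most of the 21 targets thus stood on the same side as CCN1 and CCN2, as the plot of control levels shows.

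**Figure D4:**
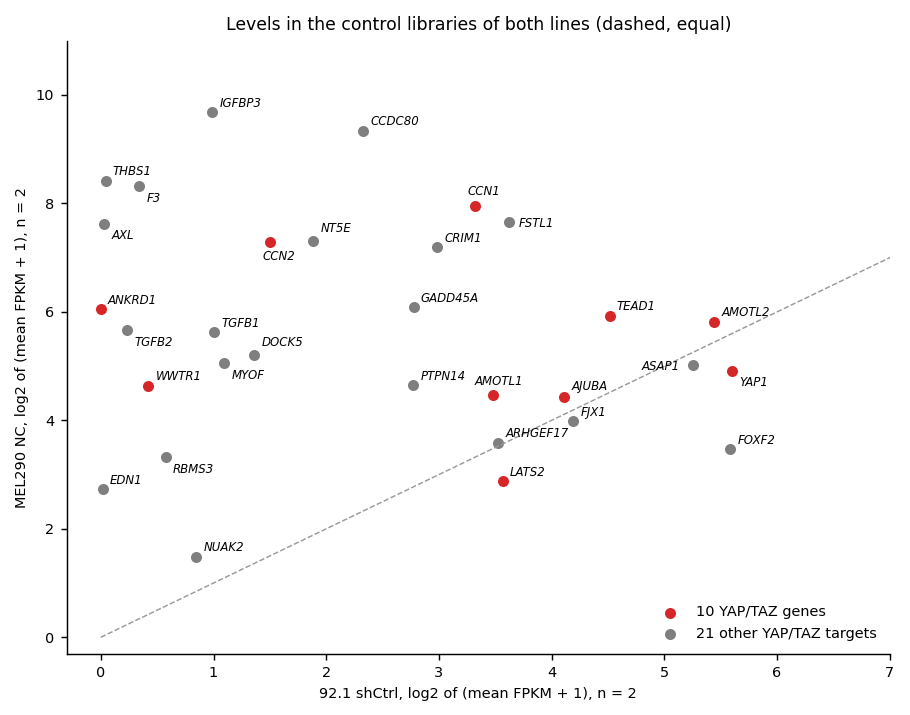
Mean level of each of the 10 members (red) and 21 other targets (grey) in the control libraries, as log2 of (mean FPKM + 1), with 92.1 shCtrl on the horizontal and MEL290 NC on the vertical axis (n = 2 each). Points above the dashed line are higher in MEL290; YAP1 and LATS2 fall below it, while CCN1, CCN2, ANKRD1 and WWTR1 lie far above it.

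With A3B OE in MEL290 the same 21 targets split: 7 rose (10.3% of all genes did), 4 fell (7.49% did) and 10 were not called, with a median log2 change of 0.17. AXL rose most (log2 change 1.07, limma adjusted p = 0.00155), from 191.4 and 197.9 to 427.3 and 391.8 FPKM. TGFB2, a ligand of the TGF-beta receptors, fell most (log2 change -1.68, limma adjusted p = 0.0011), from 52.3 and 47.3 to 14.4 and 15.4 FPKM. MYOF, TGFB1 and FSTL1 rose as well (log2 changes 0.78, 0.76 and 0.51), and GADD45A, a stress-response gene, fell by 0.50 on the log2 scale, a call lost without A3B OE replicate 2 (limma adjusted p = 0.0578). Of the 11 calls, 7 were kept in every fit that left out 1 library, those of AXL, TGFB2, MYOF, TGFB1 and FSTL1 among them. Called genes thus went in both directions, among the members and in the wider target list. CCN1, opposite in sign to CCN2, was not called. In 92.1 after depletion 14 of the 21 could be tested and none was called, with 3 at an unadjusted p under 0.05.

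Upstream, 3 Hippo kinases and scaffolds were called with A3B OE in MEL290. Of 24 genes (PTPN14 is also on the target list), 1 rose and 2 fell, where 17.8% of all genes were called, and the median log2 change was 0.08. TAOK3, a kinase above MST1 and MST2, rose (0.61, limma adjusted p = 0.0184), and the scaffolds WWC1 (KIBRA, -0.89, limma adjusted p = 0.00478) and NF2 (merlin, -0.41, limma adjusted p = 0.0252) fell. Only the WWC1 call was kept whichever single library was left out. The core kinases and SAV1 were not called: STK3 gave 0.12, STK4 -0.13, LATS1 -0.12 and the adaptor SAV1 0.43 (limma adjusted p = 0.505, 0.525, 0.569 and 0.0562). After depletion in 92.1 none of the 24 was called and none had an unadjusted p under 0.05. In the control contrast 12 of the 24 were higher in MEL290 (34.8% of all genes were) and 2 lower (40.1% were), WWC1 by the widest margin (2.75 and 2.93 FPKM in shCtrl, 83.4 and 75.6 FPKM in NC).

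Among the other TEAD partners, TEAD2 rose with A3B OE (log2 change 0.66, limma adjusted p = 0.0114), from 9.84 and 9.43 to 16.5 and 15.2 FPKM. VGLL4, which competes with YAP for TEAD, fell (-0.53, limma adjusted p = 0.0123), from 38.8 and 42.3 to 27.4 and 28.2 FPKM. Neither call was kept in every fit that left out 1 library. TEAD3, TEAD4 and VGLL3 were not called, and VGLL1 and VGLL2 were too low to be tested. After depletion in 92.1, 4 of these partners were tested and none was called, with 1 at an unadjusted p under 0.05. That gene was VGLL4 (log2 change -0.38, limma adjusted p = 0.999), so its estimate was below 0 with both opposite changes of A3B. The share of TEAD1 in the TEAD sum was 69.7 and 74.6% in NC and 57.3 and 66.8% in A3B OE, and that of TEAD2 was 12.6 and 10.8% in NC and 22.1 and 18.3% in A3B OE. VGLL3, a TEAD cofactor, stood at 20.7 to 24.5 FPKM in MEL290 and at 0.0179 to 0.101 FPKM in 92.1.

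Genes of SRF and actin, which share many stimuli with YAP, were likewise mixed in MEL290: 5 of 17 tested rose (10.3% of all genes did) and 2 fell (7.49% did), with a median log2 change of 0.02. The SRF co-activator MRTFB rose (log2 change 1.2, limma adjusted p = 0.0184), as did VCL, ACTB, ACTG1 and FLNA (0.48, 0.41, 0.37 and 0.36), while FHL2 fell by 0.87 and ACTA2 by 0.51 on the log2 scale. Of these 7 calls only those of VCL and FHL2 were kept in every fit that left out 1 library. Under quantile normalization the ACTG1 change was 0.06 and not called (limma adjusted p = 0.358). ACTB and ACTG1 share sequence with each other and with many pseudogenes, so the division of reads between them is uncertain. Of the 10 genes of the route from Gq to YAP, only ARF6, a small GTPase, was called (0.46, limma adjusted p = 0.0215), where 17.8% of all genes were. The ARF6 call was lost without NC replicate 2, A3B OE replicate 1 or A3B OE replicate 2 (limma adjusted p = 0.0627, 0.065 and 0.0936). The log2 changes of GNAQ and GNA11 were 0.00 and 0.02. After depletion in 92.1 no gene of either list was called, with 1 at an unadjusted p under 0.05 among the SRF and actin genes and 0 in the Gq route.

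**Figure D5:**
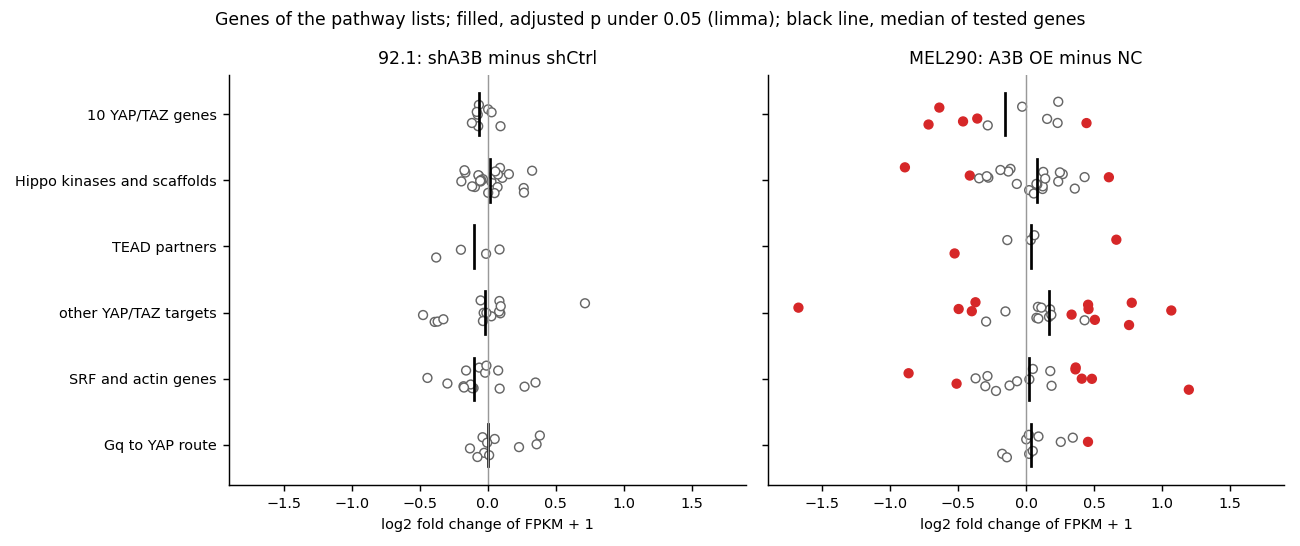
Log2 fold change of FPKM + 1 for the tested genes of each list, with A3B depletion in 92.1 (left) and A3B overexpression in MEL290 (right). Filled points had a limma adjusted p under 0.05 and black lines are medians; no point is filled on the left, and on the right the 10 YAP/TAZ genes have 5 filled points (1 above 0, 4 below) and the other targets 11 (7 above, 4 below).

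The genes whose profile over the 8 libraries was most like the mean profile of CCN1, CCN2 and ANKRD1 were ranked by the mean absolute difference of centred log2(FPKM + 1), among 9890 genes. TRIM22 came first (0.0468), followed by CREB3L1 (0.0988), CAVIN1 (0.101), LAYN (0.105) and EGFR (0.112). TRIM22, a tripartite motif protein, stood at 0.0438 to 0.0879 FPKM in 92.1, at 48.6 and 50.4 FPKM in NC and at 38.8 and 37.1 FPKM in A3B OE. CAVIN1, a coat protein of caveolae, stood at 2.55 to 4.08 FPKM in 92.1, 202.9 and 201.1 FPKM in NC and 179.7 and 161 FPKM in A3B OE. The likeness rests almost wholly on the gap between the lines, and it describes these 8 libraries without a test.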

How the data were processed

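RNA was extracted with Trizol from 92.1 and MEL290 cells and sequenced in pairs on an Illumina instrument. The authors aligned reads to GRCh38 with STAR and deposited FPKM values per gene computed with Cufflinks; versions and strand handling are not given in the sources used here, and the Ensembl release that the methods name is older than some symbols in the files. Overlapping and antisense genes may therefore share reads. Libraries were grouped by their titles. From the deposited FPKM, log2(FPKM + 1) was computed, genes with at least 1 FPKM in at least 2 libraries of a fit were kept, and limma 3.58.1 in R 4.3.3 (empirical Bayes with trend, two-sided) was run within each line for the A3B comparisons and over all 8 libraries for the control contrast and the difference of effects, with Benjamini-Hochberg adjustment over all genes and a threshold of 0.05. An exact permutation of 2 against 2 libraries cannot reach that threshold. The script was tested on simulated data. Named genes were the 10 members, A3B, the TEAD and core Hippo genes, at most 6 called genes of each other list by size of change, and the 5 genes most like CCN1, CCN2 and ANKRD1. FOXF2, ASAP1, FJX1, FLNA and CD68 were named after their values were seen. Of the target list, 1 gene is not reported here. Members and lists were chosen with earlier results of these data known. Alternatives were quantile and upper quartile scaling, a pseudocount of 0.1, no filter, a filter of 1 FPKM in every library, no trend, other sets of libraries, a block for the replicate number, and leaving out each library. Replicate numbers are labels only: deviations from group means correlated at 0.193 in 92.1 and -0.0295 in MEL290.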

Additional observations from a re-analysis of the deposited data

Results flagged for a closer look

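The test of the overexpression change in MEL290 minus the depletion change in 92.1 called 6 genes of the lists, none of them a YAP/TAZ member. It called 4.4% of all 12697 genes (559). The 6 were 1 of 5 TEAD partners tested, 3 of 21 other targets, 1 of 18 SRF and actin genes and 1 of 2 epithelial markers. None of the 24 Hippo kinases and scaffolds was called, and none in the remaining lists. Because A3B was raised in MEL290 and lowered in 92.1, a call cannot tell whether the response to A3B differed between the lines. On the log2 scale the difference was 0.86 for TEAD2, 1.01 for AXL, 0.78 for ARHGEF17, -1.66 for TGFB2, -0.85 for FHL2 and -0.91 for the keratin KRT18. AXL and TGFB2 stood at 0.0156 to 0.194 FPKM in every library of 92.1 and passed the filter only through MEL290. Their differences are thus almost the MEL290 changes alone. Neither gene could be tested with at least 1 FPKM required in every library. With a pseudocount of 0.1 the AXL difference was 0.66 and not called (limma adjusted p = 0.134). Of the 6 calls, that for TGFB2 was the only one kept in every fit that left out 1 library. With the replicate block the calls of TEAD2, ARHGEF17 and FHL2 were lost (limma adjusted p = 0.082, 0.0864 and 0.0547). In TEAD2 the change was -0.20 in 92.1 after depletion (not called) and 0.66 in MEL290 with overexpression.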

How the results depend on the processing

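The members were not called in 92.1, nor in the difference of effects, under any alternative. In MEL290, 3 members (CCN2, AMOTL1 and AMOTL2) were called without the trend, without the filter and with the replicate block, and 1 to 4 when 1 library was left out, which leaves an arm with 1 library assumed to vary like the rest. Genes called by limma with depletion in 92.1 numbered 2 without the trend, 0 without the filter (556 at an unadjusted p under 0.05, A3B itself at limma adjusted p = 0.343) and 2 to 9 without 1 library. With overexpression in MEL290 they numbered 915 without the filter and 809 to 1979 without 1 library (888 when it was A3B OE replicate 1, 809 when it was replicate 2). For the difference of effects they numbered 328 with at least 1 FPKM in every library and 36 to 286 without 1 library (36 without A3B OE replicate 1). The causes were not tested. Uncalled values that changed sign in 92.1 were AMOTL1 (-0.025) and LATS1 (-0.021) under quantile normalization and TEAD3 (0.020) under upper quartile scaling, and in MEL290 TEAD3 (-0.0080) under quantile normalization. Without 1 library, uncalled values in 92.1 spanned -0.15 to 0.0022 for YAP1, -0.19 to 0.37 for TEAD1, -0.15 to 0.016 for CCN1, -0.27 to 0.13 for CCN2, -0.16 to 0.16 for AMOTL1, -0.074 to 0.13 for AMOTL2, -0.20 to 0.18 for TEAD3 and -0.030 to 0.18 for STK4, and in MEL290 -0.074 to 0.14 for TEAD3, -0.095 to 0.22 for TEAD4 and -0.17 to 0.36 for AMOT.

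The numbers do not pair the libraries by any statement in the labels. With the replicate block the genes called numbered 37 with depletion (20 higher, 17 lower), 1521 with overexpression and 223 for the difference of effects, and AMOTL2 and AJUBA lost their calls in the control contrast (limma adjusted p = 0.0502 and 0.0987). With 2 libraries a group, intervals of the members in 92.1 reached up to 0.53 on the log2 scale.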

Other observations

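The other CCN family genes were low: CCN4, CCN5 and CCN6 lay under 1 FPKM in all 8 libraries. CCN3, a secreted matrix protein of the same family, stood at 6.69 and 6.44 FPKM in shCtrl, 4.93 and 3.5 FPKM in shA3B, 35.7 and 31.0 FPKM in NC and 33.2 and 33.1 FPKM in A3B OE. It was not called with A3B in either line (log2 change -0.55 in 92.1, limma adjusted p = 0.999, and 0.00 in MEL290, limma adjusted p = 0.981).

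The 2 keratins fell with A3B OE in MEL290: KRT18 by 0.66 on the log2 scale (limma adjusted p = 0.00406) and KRT8 by 0.40 (limma adjusted p = 0.0232), the latter call being lost without the trend and without the filter (limma adjusted p = 0.0734 and 0.0983). Keratin genes have many pseudogenes, which may share reads. Of the melanocyte markers 3 could be tested in MEL290 and none was called, with 0 at an unadjusted p under 0.05. Of the fibroblast and the endothelial and blood markers, COL1A1 and CD68 were the ones tested there, and neither was called.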
